A study of Homo sapiens with 6 samples.

Results

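The ligands, receptors, SMAD proteins, antagonists and target genes of TGF-beta and BMP signalling were followed after *PAX2* knockdown (KD) in AN3CA, an established human endometrial cancer (EC) cell line that expresses the transcription factor PAX2. The 53 genes were taken by name. Of these, 24 were counted in the TGF-beta/activin arm of the pathway, 22 in the BMP arm and 7 in both. The expression table listed 17471 genes and held 51 of the 53. *BMP2* and *BMP5* were not analysed here. Of the 51, 39 passed a filter on low values and were tested.

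Bulk RNA-Seq was compared between 3 libraries of AN3CA cells transduced with an empty hairpin vector (shEV) and 3 libraries of AN3CA cells transduced with a vector that encodes a *PAX2*-specific hairpin (shPAX2). The labels give the genotype as WT for shEV and *PAX2* KD for shPAX2. Both groups were lentivirally transduced and selected with puromycin, and all were grown in the same serum-containing medium. A single hairpin was used, selected cells were not described as clones, and the methods name an empty vector where other passages of the study call the AN3CA control scrambled. The methods say in general that in vitro experiments were repeated, and they do not say whether the 3 libraries of a group came from separate cultures, so the p-values below measure the spread between these libraries, which may be technical.

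Levels are given in TPM, read counts adjusted for transcript length and sequencing depth. Whole reads recovered from the TPM values summed to between 10730909 and 18221859 in shEV and to between 19422615 and 29405787 in shPAX2, with no shPAX2 library as shallow as the deepest of shEV. *PAX2* itself was at 4.03, 3.66 and 2.74 TPM in shEV and at 0.92, 0.72 and 1.17 TPM in shPAX2, or 26.9% of the shEV mean. The groups did not overlap (log2 fold change -1.47, adjusted p = 0.000294; exact permutation test over libraries, two-sided p = 0.1, the smallest that 3 against 3 allows). The labels call the cells epithelial. Of 12 epithelial markers, 11 were listed and 10 of them, *CDH1* and *EPCAM* included, stayed under 0.5 TPM in every library, with only *KRT18* tested. Of 12 mesenchymal markers, 11 were listed and 7 were tested. *VIM* was at 3749.86 to 4410.46 TPM, while *CDH2*, *ZEB2* and *TWIST1* stayed under 0.5 TPM in every library. The 7 listed of 10 blood and endothelial markers summed to 1.11 to 1.60 TPM in shEV and to 1.80 to 2.89 TPM in shPAX2, of which *CD68* alone passed the filter. In bulk samples, fewer cells of a type and less RNA per cell cannot be told apart.

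TGF-beta ligands are secreted in a latent form, held by a propeptide and by latent TGF-beta binding proteins (LTBPs), and once freed they bind the type II receptor *TGFBR2*, which activates the type I receptor *TGFBR1* and then the receptor SMADs *SMAD2* and *SMAD3*. BMPs use other type I and type II receptors and act through *SMAD1*, *SMAD5* and *SMAD9*. Both sets of receptor SMADs join the common *SMAD4* and act in the nucleus. The pathway limits itself through inhibitory SMADs, ubiquitin ligases and a decoy receptor, and in the endometrium it is known for its part in stromal differentiation and in the control of epithelial growth.

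**Figure D1:**
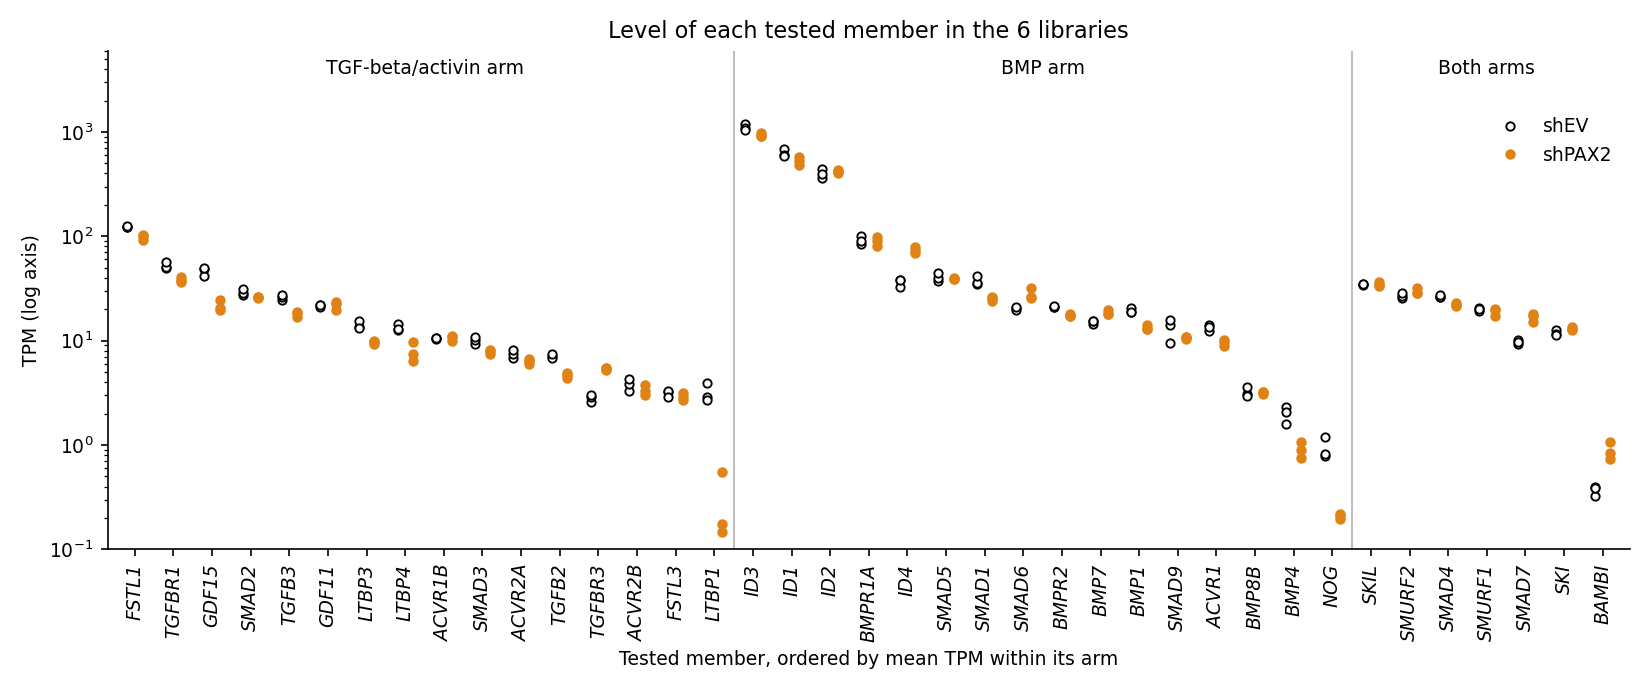
TPM of the 39 tested genes in each of the 6 libraries, on a log axis, ordered by mean TPM within each arm. Each open circle is an shEV library and each filled circle an shPAX2 library. *ID3*, *ID1* and *ID2* lie highest, and *LTBP1*, *NOG*, *BMP4* and *BAMBI* lie lowest in 1 of the groups, with no overlap between groups.

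Across the pathway, more genes were lower than higher after *PAX2* KD, as in the transcriptome as a whole. With limma on log2(TPM + 0.5), 18 of the 39 tested genes were lower at an adjusted p under 0.05 (46.2%), against 30.5% of all 13163 genes tested. A further 6 were higher (15.4%), against 12.2% of all genes, and 15 did not pass. In either direction, 42.8% of all genes passed. With a change of at least 2-fold added, 3 members were lower (*GDF15*, *LTBP1* and *NOG*; 3.11% of all genes) and 1 was higher (*ID4*; 1.43% of all genes). The 2 groups had no shared range of TPM in 26 of the 39, against 54.9% of all genes. *NOG* and *BAMBI* passed the filter only through the group in which they were high. *LTBP1* also needed its shEV libraries to pass, since in shPAX2 only replicate 1 reached 0.5 TPM. These counts therefore describe the genes tested and not the whole pathway.

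The arms differed in their counts. In the TGF-beta/activin arm 9 of 16 tested genes were lower and 1 was higher, with a median log2 fold change of -0.33. In the BMP arm 8 of 16 were lower and 3 higher, with a median of -0.24. Of the 7 genes that act in both arms, 1 was lower and 2 were higher, with a median of 0.12. The median over all genes tested was -0.10, so values close to that size are level with the transcriptome. When the TPM values were rescaled by the median of ratios between libraries, the all-gene median moved to 0.01 and the share of lower genes among all calls moved from 71.4% to 47.3%. On that scale 14 members were lower (35.9%, against 19.6% of all genes) and 8 were higher (20.5%, against 21.8%). The TGF-beta/activin arm kept 9 lower and 1 higher, the BMP arm had 5 lower and 3 higher, and the genes of both arms had 0 lower and 4 higher. No difference between the arms was tested.

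**Figure D2:**
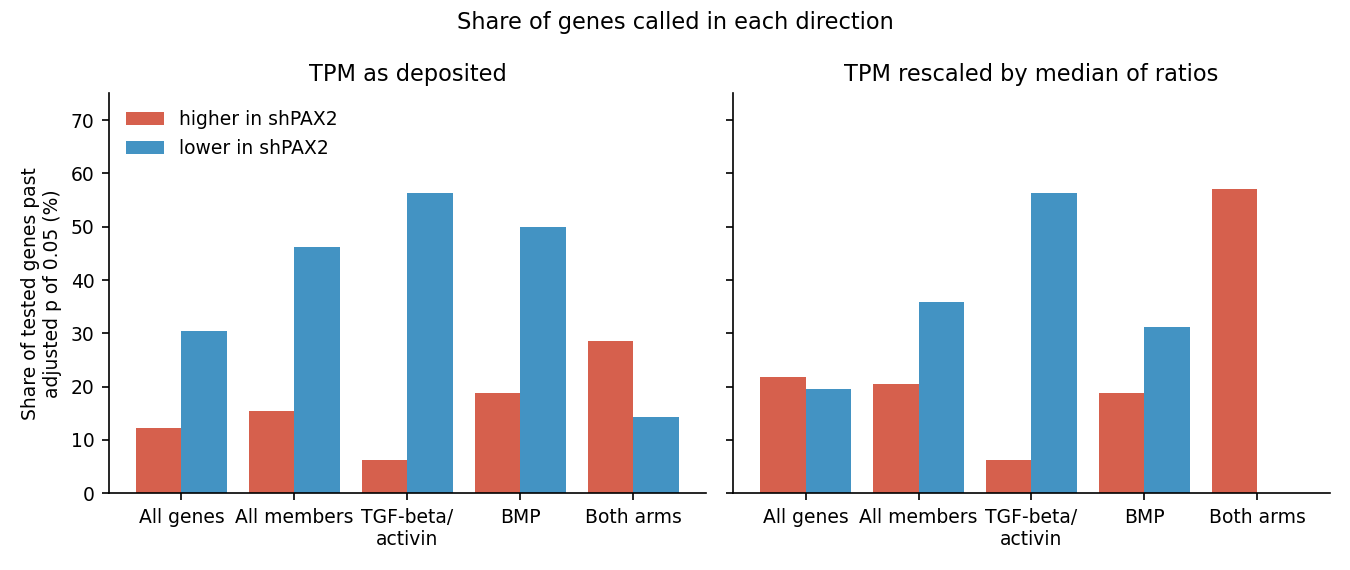
Share of tested genes past an adjusted p of 0.05, in percent, higher (red bars) or lower (blue bars) in shPAX2, over all genes, all tested members and each arm, with the TPM values as deposited (left) and rescaled by the median of ratios (right). Among all genes the lower share falls from 30.5% to 19.6% on rescaling, while in the TGF-beta/activin arm it stands at 56.2% in both panels.

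**Figure D3:**
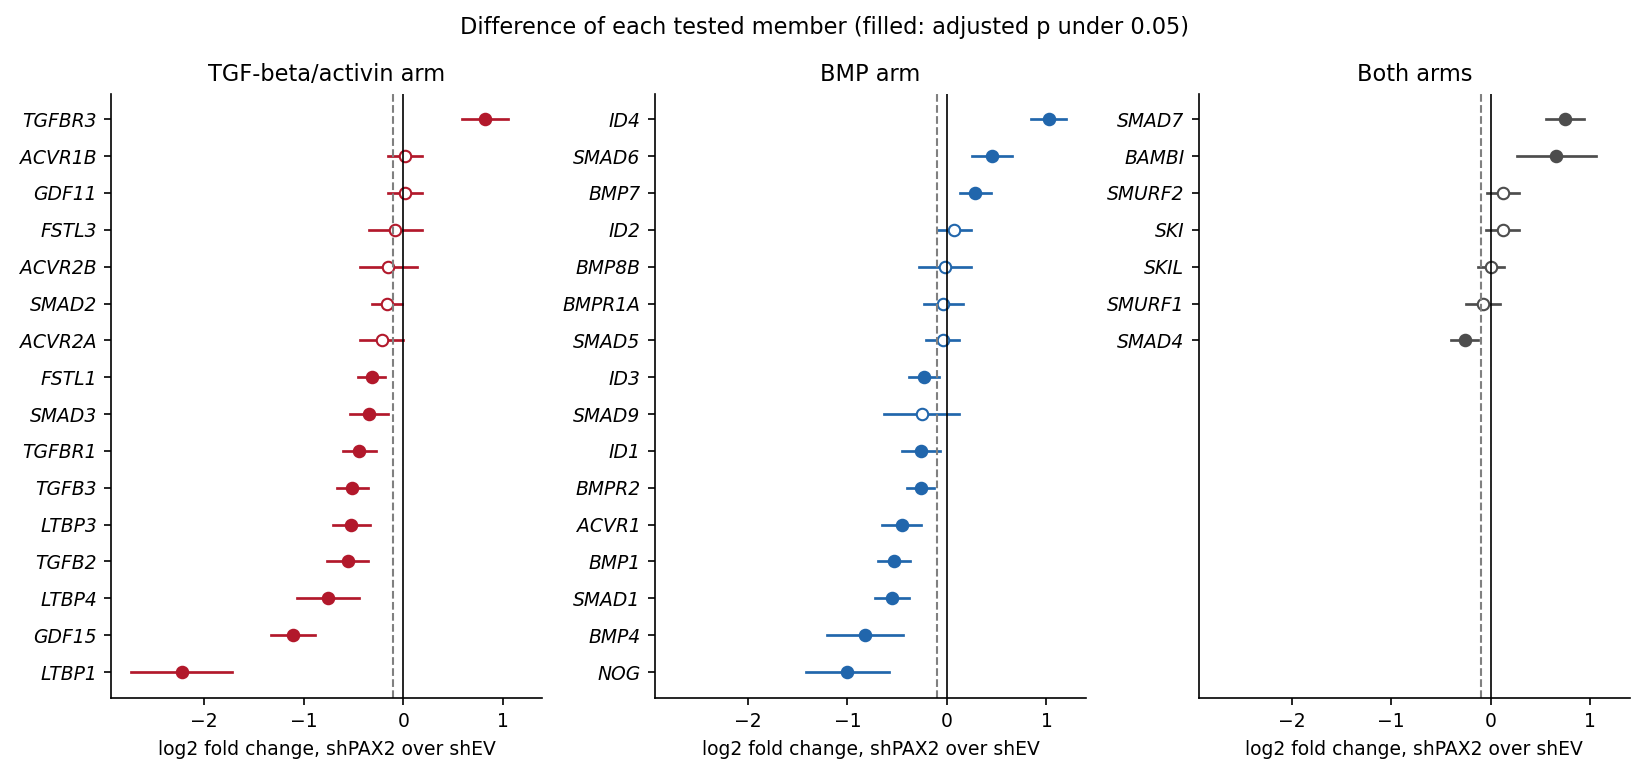
Log2 fold change of shPAX2 over shEV for each tested gene, with its 95% confidence interval from limma (horizontal line). Filled points passed an adjusted p of 0.05, the solid line marks no change and the dashed line marks the median of all genes (-0.10). *LTBP1* lies lowest at -2.23 and *ID4* highest at 1.02.

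The expressed ligands counted in the TGF-beta/activin arm were lower, except for *GDF11*. Genes were placed in the arm by listing, and signalling of these ligands through its receptors was not measured. *GDF15*, a distant family member induced by cell stress, was the most abundant ligand in shEV and level with *GDF11* in shPAX2, at 49.0, 41.8 and 50.2 TPM in shEV and at 19.8, 24.3 and 20.5 TPM in shPAX2. Every shPAX2 library lay below every shEV library (log2 fold change -1.11 ± 0.10 (SE, n = 3 and 3), adjusted p = 4.6e-05). The microRNA gene *MIR3189* overlaps *GDF15* on the same strand, so reads of the pair cannot be told apart. *TGFB3* was the main true TGF-beta, at 24.5, 26.4 and 27.1 TPM in shEV and at 18.3, 19.0 and 17.0 TPM in shPAX2. Its groups did not overlap (-0.51 on the log2 scale, adjusted p = 0.000589). *TGFB2* was at 7.07, 6.82 and 7.46 TPM in shEV and at 4.89, 4.41 and 4.73 TPM in shPAX2, again with no overlap (-0.56, adjusted p = 0.00142). *TGFB1* had 0 to 3 reads in every library and was not detectable at this depth. The 3 TGF-beta ligands together summed to 33.2 ± 1.41 TPM (SD, n = 3) in shEV and to 22.8 ± 0.94 TPM in shPAX2, and nearly all of it was *TGFB3* and *TGFB2*. *GDF11*, which signals through activin receptors, was at 20.9 to 22.0 TPM in shEV and at 19.8 to 23.4 TPM in shPAX2 and did not pass (log2 fold change 0.02, 95% interval -0.15 to 0.19).

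Each LTBP that was tested was lower in shPAX2. *LTBP1*, which tethers latent TGF-beta to the extracellular matrix, gave the largest change of any member. It was at 3.90, 2.85 and 2.70 TPM in shEV and at 0.556, 0.175 and 0.145 TPM in shPAX2, from 133, 160 and 155 reads against 54, 15 and 9. All 3 shPAX2 libraries were low. Replicate 1 stood above replicates 2 and 3 and alone reached 0.5 TPM, so *LTBP1* passed the filter through shEV. The ratio of the means was 10.8, and the log2 fold change was -2.23 ± 0.22 (SE, n = 3 and 3; adjusted p = 0.000105). With a library left out it ranged from -2.09 to -2.45, and over the other alternatives from -1.69 with a pseudocount of 1 to -3.49 with voom on the recovered reads. *LTBP3* was at 13.5, 15.5 and 13.2 TPM in shEV and at 9.77, 9.88 and 9.22 TPM in shPAX2, with no overlap (-0.52, adjusted p = 0.00124). *LTBP4* was at 12.7, 14.6 and 13.0 TPM in shEV and at 9.72, 7.42 and 6.40 TPM in shPAX2, also with no overlap (-0.76, adjusted p = 0.00277). *LTBP2* had 3 to 16 reads and was not tested. Summed over the 4 LTBPs, the level was 30.8 ± 1.99 TPM (SD, n = 3) in shEV and 17.8 ± 2.08 TPM in shPAX2.

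**Figure D4:**
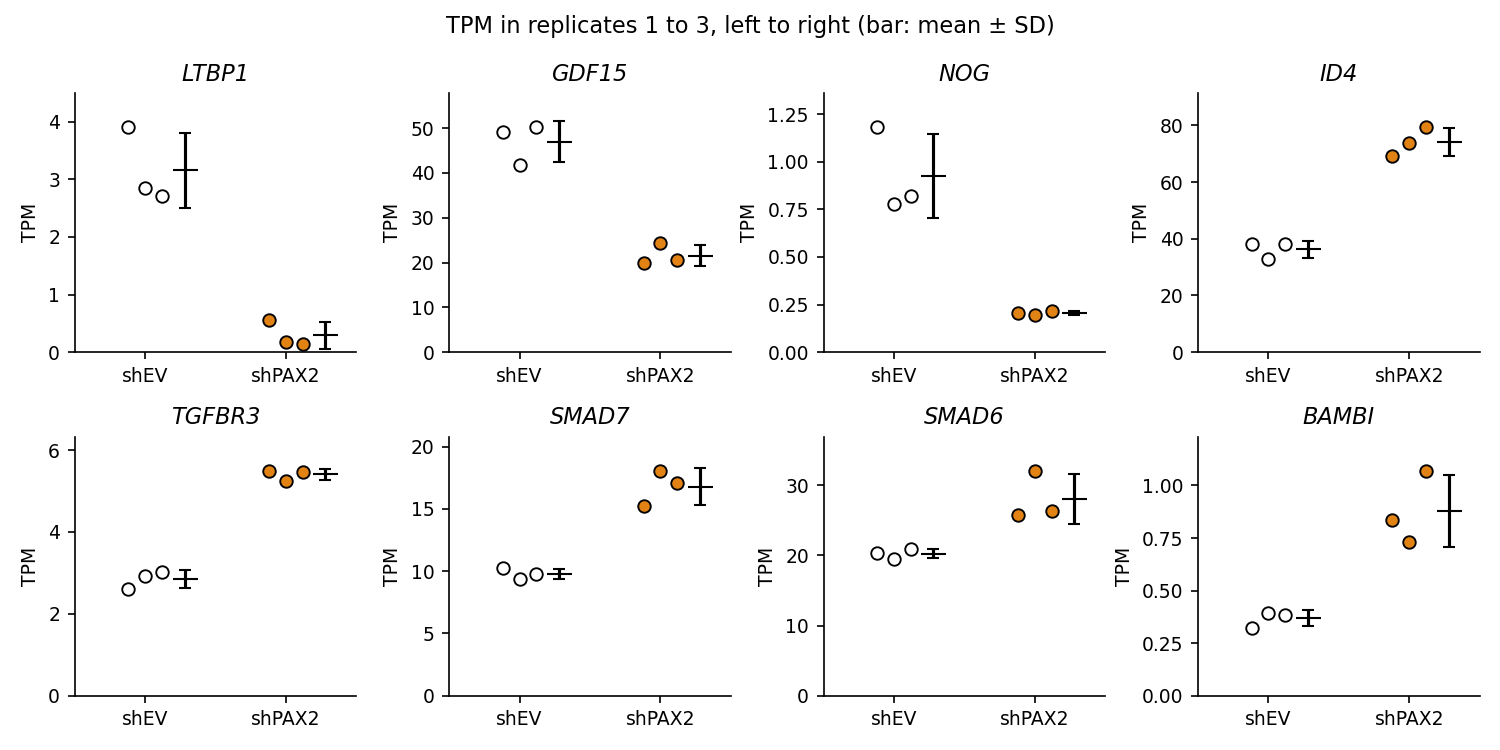
TPM in each library for 8 genes, with replicates 1 to 3 from left to right as points and the mean ± SD beside them. *LTBP1*, *GDF15* and *NOG* are lower in every shPAX2 library, and *ID4*, *TGFBR3*, *SMAD7*, *SMAD6* and *BAMBI* are higher in every shPAX2 library than in any shEV library.

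The receptors showed opposite changes within the TGF-beta arm. The type I receptor *TGFBR1* was at 49.6, 50.6 and 57.0 TPM in shEV and at 40.6, 36.4 and 38.2 TPM in shPAX2, lower in every library (log2 fold change -0.44, adjusted p = 0.00145). The co-receptor *TGFBR3* (betaglycan), which presents TGF-beta2 to the type II receptor and binds inhibin, was at 2.60, 2.91 and 3.03 TPM in shEV and at 5.49, 5.25 and 5.47 TPM in shPAX2. It was the only TGF-beta/activin gene to rise, 1.90-fold by the means (log2 fold change 0.82 ± 0.10 (SE, n = 3 and 3), adjusted p = 0.000368). In shEV the type II receptor *TGFBR2* had 3, 0 and 0 reads, against 4, 1 and 2 in shPAX2. It was therefore at or near the limit of 3 reads in both groups, at most 0.12 TPM beside 36.4 TPM or more of *TGFBR1*, and no difference was detectable at this depth.

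The activin receptors did not pass. *ACVR1B*, an activin type I receptor, was at 10.3 to 10.7 TPM in shEV and at 10.0 to 11.1 TPM in shPAX2 (log2 fold change 0.02, 95% interval -0.15 to 0.18). The type II receptors *ACVR2A* and *ACVR2B* were at 5.92 to 8.05 and at 3.05 to 4.26 TPM over the 6 libraries, with log2 fold changes of -0.22 (adjusted p = 0.0909) and -0.15 (adjusted p = 0.363). The groups of *ACVR2A* did not overlap and those of *ACVR2B* did.

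On the BMP side, *BMPR1A* was the most abundant receptor of either arm and did not pass. It was at 99.7, 84.6 and 89.5 TPM in shEV and at 80.2, 89.7 and 97.5 TPM in shPAX2, with overlapping groups (log2 fold change -0.04, 95% interval -0.23 to 0.16). *ACVR1*, the other expressed BMP type I receptor, was lower (12.3 to 14.2 TPM in shEV, 8.88 to 10.1 TPM in shPAX2, log2 fold change -0.46, adjusted p = 0.0029). The type II receptor *BMPR2* was at 20.9 to 21.3 TPM in shEV and at 17.1 to 17.9 TPM in shPAX2 (-0.27, adjusted p = 0.00694). That call was lost when the values were rescaled by the median of ratios (-0.16, adjusted p = 0.0586). *BMPR1B* had 0 or 1 read in every library.

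The BMP ligands moved in both directions. *BMP7* was the main BMP, at 14.4, 15.6 and 15.5 TPM in shEV and at 18.0, 19.7 and 18.0 TPM in shPAX2. It was higher in every shPAX2 library (log2 fold change 0.28, adjusted p = 0.0104), although the call was lost without shPAX2 replicate 2 (0.24, adjusted p = 0.0568). *BMP4* was at 2.34, 1.58 and 2.08 TPM in shEV and at 0.76, 1.07 and 0.89 TPM in shPAX2, from 18 to 39 reads a library. It was lower with no overlap (-0.82 ± 0.17 (SE, n = 3 and 3), adjusted p = 0.00467). *BMP8B* did not pass (2.96 to 3.60 TPM over the 6 libraries, log2 fold change -0.02). Its reads may be shared with the near-identical gene *BMP8A* and with *OXCT2*, which overlaps it on the same strand. *BMP6* had 0 to 5 reads. *BMP1*, a metalloproteinase that cleaves procollagen and the BMP antagonist chordin and is not itself a TGF-beta family ligand, was at 18.7, 20.7 and 18.7 TPM in shEV and at 14.0, 12.9 and 12.8 TPM in shPAX2 (-0.53, adjusted p = 0.000541).

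Among the secreted antagonists, *NOG* (noggin), which binds BMPs and keeps them from their receptors, was lower at a low level. It was at 1.18, 0.78 and 0.82 TPM in shEV and at 0.21, 0.20 and 0.22 TPM in shPAX2, from 12, 13 and 14 reads against 6, 5 and 4 in deeper libraries. *NOG* passed the filter only through shEV, so it could be tested only because it was high there. It was not tested with any shEV library left out or with a filter of 5 TPM. The groups did not overlap (ratio of means 4.48, log2 fold change -1.002 ± 0.18 (SE, n = 3 and 3), adjusted p = 0.00259). The size of this change depended on the scale, from -0.67 with a pseudocount of 1 to -1.99 on the recovered reads, with an adjusted p under 0.05 in both. *CHRD* (chordin), which acts in the same way, did not pass the filter, with 0.37, 0.48 and 0.50 TPM in shEV and 0.22, 0.13 and 0.12 TPM in shPAX2. These came from 7, 15 and 16 reads against 12, 6 and 4, and the groups did not overlap in TPM. With no filter its log2 fold change was -0.54 (adjusted p = 0.00809). The BMP antagonist *GREM1* had 0 or 1 read. *FSTL1*, a follistatin-like secreted glycoprotein, was counted in the TGF-beta/activin arm. It was at 122, 122 and 126 TPM in shEV and at 92.6, 101 and 103 TPM in shPAX2, lower in every library (-0.32, adjusted p = 0.00295). *FSTL3*, which binds activin, did not pass (2.71 to 3.29 TPM over the 6 libraries, log2 fold change -0.08). *FST* had 0 or 1 read.

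In each arm 1 receptor SMAD was lower and the rest did not pass. In the BMP arm, *SMAD1* was at 35.2, 35.9 and 41.2 TPM in shEV and at 25.7, 23.9 and 26.3 TPM in shPAX2, with no overlap (log2 fold change -0.55, adjusted p = 0.000582). *SMAD5*, the most abundant, was at 37.3, 39.8 and 44.7 TPM in shEV and at 38.9, 39.8 and 39.1 TPM in shPAX2 and overlapped (-0.04, 95% interval -0.21 to 0.12). *SMAD9* was at 9.59, 14.0 and 15.6 TPM in shEV and at 10.9, 10.5 and 10.7 TPM in shPAX2. The low value was shEV replicate 1, the shallowest library. The log2 fold change was -0.25 (adjusted p = 0.244), and it was -0.45 (adjusted p = 0.00459) without that library.

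In the TGF-beta/activin arm, *SMAD3* was lower (9.31 to 10.8 TPM in shEV, 7.53 to 8.14 TPM in shPAX2, log2 fold change -0.34, adjusted p = 0.011). *SMAD2* was at 27.6, 28.5 and 31.4 TPM in shEV and at 25.6, 26.1 and 26.3 TPM in shPAX2. Its groups did not overlap, and it did not pass (-0.16, adjusted p = 0.0776). The common *SMAD4* was at 26.2, 26.1 and 27.3 TPM in shEV and at 23.0, 21.4 and 21.9 TPM in shPAX2, lower in every library (-0.26, adjusted p = 0.00806). This call was lost on rescaling by the median of ratios (-0.15, adjusted p = 0.0721).

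*SMAD7*, *SMAD6* and *BAMBI*, which limit signalling, rose. *SMAD7*, which blocks TGF-beta and BMP receptors and recruits ubiquitin ligases to them, was at 10.2, 9.36 and 9.77 TPM in shEV and at 15.2, 18.1 and 17.1 TPM in shPAX2. It was 1.72-fold higher by the means (log2 fold change 0.75 ± 0.08 (SE, n = 3 and 3), adjusted p = 0.000175). *SMAD6*, which acts mainly on BMP signalling, was at 20.4, 19.5 and 20.9 TPM in shEV and at 25.7, 32.1 and 26.3 TPM in shPAX2. It was 1.38-fold higher (0.45 ± 0.09 (SE, n = 3 and 3), adjusted p = 0.00357). *BAMBI*, a receptor that lacks the kinase domain and acts as a decoy, was at 0.324, 0.394 and 0.385 TPM in shEV and at 0.834, 0.732 and 1.07 TPM in shPAX2. Its reads numbered only 3, 6 and 6 in shEV against 22, 17 and 18 in shPAX2. It was 2.39-fold higher by the means (0.66 ± 0.17 (SE, n = 3 and 3), adjusted p = 0.0148, and 1.12 on the recovered reads). For all 3 genes every shPAX2 library lay above every shEV library. *BAMBI*, however, passed the filter only through shPAX2, so it could be tested only because it was high there. It was not tested with any shPAX2 library left out or with a filter of 5 TPM.

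The ubiquitin ligases and SMAD co-repressors among the members did not pass. The ubiquitin ligase *SMURF2* was at 25.9, 27.0 and 28.9 TPM in shEV and at 28.8, 28.5 and 32.0 TPM in shPAX2 (log2 fold change 0.12, 95% interval -0.04 to 0.28). *SMURF1* lay between 17.0 and 20.3 TPM in all libraries (-0.08, 95% interval -0.25 to 0.10). The SMAD co-repressor *SKIL* was at 33.9, 35.1 and 34.6 TPM in shEV and at 34.2, 33.6 and 36.2 TPM in shPAX2 (0.01, 95% interval -0.12 to 0.14). Its relative *SKI* was at 11.4 to 12.6 TPM in shEV and at 12.5 to 13.5 TPM in shPAX2 (0.12, adjusted p = 0.216). On rescaling by the median of ratios, *SMURF2* (0.23, adjusted p = 0.0273) and *SKI* (0.23, adjusted p = 0.0349) passed as higher.

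The promoters of *SMAD6*, *SMAD7* and *BAMBI*, which rose, and of *ID4* and *LTBP1*, which had the largest change in each direction, are shown for the SMAD binding sequences they hold. The windows are the 250 bases before the transcription start, on the gene's strand, from RefSeq on GRCh38.p14, whose coordinates are not those of the expression table (hg19). They were matched by symbol, and 47 of the 53 genes had an entry. *SMAD7* and *LTBP1* each have 3 starts in the table, and the window listed at the top is shown. Capitals mark 3 sequences searched on both strands: the SMAD palindrome GTCTAGAC, the GC-rich SMAD site GGCGCC and the short SMAD element CAGAC. None of these overlapped another in the windows shown. The windows are *SMAD6* at chr15:66701986-66702235 on the plus strand, *SMAD7* at chr18:48950966-48951215 on the minus strand, *BAMBI* at chr10:28677271-28677520 on the plus strand, *ID4* at chr6:19837120-19837369 on the plus strand and *LTBP1* at chr2:32946703-32946952 on the plus strand.
SMAD6: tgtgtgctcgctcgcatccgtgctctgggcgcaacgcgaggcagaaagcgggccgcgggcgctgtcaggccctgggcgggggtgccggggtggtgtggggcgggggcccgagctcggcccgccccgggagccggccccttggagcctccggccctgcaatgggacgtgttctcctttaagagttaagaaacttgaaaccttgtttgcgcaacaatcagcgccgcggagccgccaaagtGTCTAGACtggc
SMAD7: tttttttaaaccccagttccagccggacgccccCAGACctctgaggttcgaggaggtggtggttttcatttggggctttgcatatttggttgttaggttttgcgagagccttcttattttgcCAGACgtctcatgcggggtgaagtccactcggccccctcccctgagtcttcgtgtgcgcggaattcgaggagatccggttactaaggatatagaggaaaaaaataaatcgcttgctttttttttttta
BAMBI: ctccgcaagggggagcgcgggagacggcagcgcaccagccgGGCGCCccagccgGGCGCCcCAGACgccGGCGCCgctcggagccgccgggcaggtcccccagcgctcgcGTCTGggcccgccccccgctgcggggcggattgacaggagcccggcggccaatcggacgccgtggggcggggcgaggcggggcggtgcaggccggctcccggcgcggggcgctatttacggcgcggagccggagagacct
ID4: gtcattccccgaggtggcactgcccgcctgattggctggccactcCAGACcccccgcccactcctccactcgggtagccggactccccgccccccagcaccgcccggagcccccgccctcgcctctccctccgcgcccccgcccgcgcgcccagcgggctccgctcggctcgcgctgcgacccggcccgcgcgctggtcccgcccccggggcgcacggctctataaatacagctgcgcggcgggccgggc
LTBP1: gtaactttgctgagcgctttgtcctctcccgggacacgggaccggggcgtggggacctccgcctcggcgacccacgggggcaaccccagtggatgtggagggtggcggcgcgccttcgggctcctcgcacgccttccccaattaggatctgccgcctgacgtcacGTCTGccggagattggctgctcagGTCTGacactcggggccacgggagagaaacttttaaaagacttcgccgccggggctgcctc

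The palindrome was found in *SMAD6*, starting 12 bases before the transcription start, and in no other window of a matched member. Over all 35116 windows of this length it was held by 64 (0.182%). GGCGCC was held by 16.4% of all windows and by 21 of the 79 member windows (26.6%), with 3 matches in *BAMBI* and 0 in the windows shown for the other genes. CAGAC was held by 38.0% of all windows and by 29 of the 79 member windows (36.7%), with 2 matches each in *SMAD7*, *BAMBI* and *LTBP1*, 1 in *ID4* and 0 in *SMAD6*. Whether these matches relate to the direction of change was not tested. A match describes these letters only, and binding was not measured here.

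The ID genes encode inhibitors of basic helix-loop-helix factors and are standard targets of BMP signalling. *ID1*, *ID2* and *ID3* were the most abundant members in both groups, and the 4 ID genes did not move together. *ID3* was at 1186, 1079 and 1033 TPM in shEV and at 919, 969 and 924 TPM in shPAX2, lower in every library (log2 fold change -0.23, adjusted p = 0.0216). *ID1* was at 594 to 688 TPM in shEV and at 478 to 578 TPM in shPAX2 (-0.26, adjusted p = 0.037). *ID2* was at 366 to 442 TPM in shEV and at 404 to 431 TPM in shPAX2, with overlapping groups (0.07, 95% interval -0.10 to 0.24). *ID1* and *ID3* lost their calls on rescaling by the median of ratios (-0.15, adjusted p = 0.209, and -0.12, adjusted p = 0.188). *ID1* also lost its call without any 1 of the 3 shEV libraries or of shPAX2 replicates 2 and 3, with adjusted p between 0.0537 and 0.116, and *ID3* lost its call without shEV replicate 1 (adjusted p = 0.0677) or 2 (adjusted p = 0.0569).

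*ID4* rose. It was at 38.0, 32.8 and 38.1 TPM in shEV and at 69.3, 73.9 and 79.4 TPM in shPAX2, with every shPAX2 library above every shEV library (log2 fold change 1.02 ± 0.08 (SE, n = 3 and 3), adjusted p = 2.39e-05). *ID4* lies on chromosome 6, where the median log2 fold change over 633 tested genes was 0.39, against -0.11 over the genes of the other chromosomes. The part of this shift in the *ID4* value was not tested. The summed level of *ID1* to *ID4* was 2167 ± 163 TPM (SD, n = 3) in shEV and 1958 ± 45.0 TPM in shPAX2, and *ID4* was a small part of it in both.

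Several members were at or near the limit of detection in every library. *INHBA*, *INHBE* and *FST* had at most 3 reads in any library, as did *TGFB1*, *GREM1* and *BMPR1B*. *INHBB*, which encodes the beta B subunit of activin and inhibin, was read 3, 9 and 9 times in the shEV libraries, against 3, 5 and 0 times after KD (log2 fold change -0.46, adjusted p = 0.0229 with no filter). *TGFBI*, a matrix protein named for its induction by TGF-beta, was at 0.46, 0 and 0.51 TPM in shEV and at 0.12, 0.24 and 0.29 TPM in shPAX2, and its groups overlapped.

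Beyond these members, 117 other genes of the pathway were listed by role, of which 97 had a row and 74 were tested. Of the 74, 14 were higher (18.9%, against 12.2% of all genes) and 29 lower (39.2%, against 30.5%), with 4 higher and 8 lower by at least 2-fold (1.43% and 3.11% of all genes). Among 27 tested intracellular regulators, 3 were higher (11.1%), of which *MAP3K7* (log2 fold change 0.41) and *TAB2* (0.38) lie on chromosome 6. The median log2 fold change on that chromosome was 0.39, and its part in these values was not tested. A further 13 of the 27 were lower (48.1%). Those lower by 2-fold were *NEDD4L*, a ubiquitin ligase that acts on activated *SMAD2* and *SMAD3* (16.2 to 19.8 TPM in shEV, 6.81 to 7.80 TPM in shPAX2, log2 fold change -1.25, adjusted p = 1.87e-05), and *ZNF423*, a zinc finger partner of BMP-activated SMADs (2.86 to 4.65 against 1.10 to 1.40 TPM, -1.23, adjusted p = 0.000646). Of 12 tested extracellular modulators, 4 were higher (33.3%) and 3 lower (25.0%). *PCSK5*, a proprotein convertase, was at 3.33 to 4.13 TPM in shEV and rose to a range of 14.98 to 16.04 TPM in shPAX2 (1.96, adjusted p = 1.87e-06). *ITGB8*, the integrin subunit that pairs with the alpha V chain to bind latent TGF-beta, was at 5.83 to 6.94 TPM in shEV and fell to a range of 2.60 to 2.76 TPM (-1.13, adjusted p = 6.83e-05). Of 3 tested receptors and co-receptors 0 were higher and 2 lower, and of 4 tested ligands none passed.

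Genes known to be induced by TGF-beta split in both directions. With the members left out, 4 of the 21 tested were higher (19.0%, against 12.2% of all genes) and 8 lower (38.1%, against 30.5%), with a median log2 fold change of -0.02 against -0.10 for all genes. The matricellular gene *CTGF* was at 25.4, 15.7 and 12.9 TPM in shEV and at 0.11, 0.54 and 0.48 TPM in shPAX2 (log2 fold change -4.38, adjusted p = 9.48e-05). The growth factor *PDGFB* was read 23, 40 and 33 times in the shEV libraries, against 1, 1 and 0 times after KD, and it passed the filter only through shEV. The cell cycle inhibitor *CDKN1A* (-1.42, adjusted p = 0.00182) and the AP-1 gene *JUNB* (-1.01, adjusted p = 5.96e-05) were also lower.

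The target genes higher by 2-fold were *ACTA2*, *TPM1* and *TAGLN*. *ACTA2*, smooth muscle actin, was at 77.3, 58.9 and 59.0 TPM in shEV and at 225, 307 and 355 TPM in shPAX2 (log2 fold change 2.16, adjusted p = 0.000824). *TPM1*, which encodes a tropomyosin, was at 25.7 to 30.9 TPM in shEV and at 64.5, 112 and 112 TPM in shPAX2, with replicate 1 the lowest (1.74, adjusted p = 0.00478), and *TAGLN*, transgelin, was at 2.91 to 2.99 TPM in shEV and at 5.08, 7.91 and 7.17 TPM in shPAX2 (1.05, adjusted p = 0.000746). Of 7 tested mesenchymal markers, which include *ACTA2*, 1 was higher (14.3%, against 12.2% of all genes) and 2 were lower (28.6%, against 30.5%). These shares were near those of all genes. Besides *ACTA2*, *COL1A2* was the marker past 2-fold (-1.11, adjusted p = 1.75e-05). The 11 listed mesenchymal markers summed to 5001 to 5416 TPM in shEV and to 4516 to 4619 TPM in shPAX2, most of it *VIM*. Of 10 tested BMP-induced genes outside the members, 3 were higher and 4 lower (against 12.2% and 30.5% of all genes), and *GATA3*, a transcription factor, was the only one past 2-fold (0.99 to 1.09 TPM in shEV, 0.09 to 0.22 TPM in shPAX2, log2 fold change -1.27). It too passed the filter only through shEV, so it could be tested only because it was high there.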

How the data were processed

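RNA from 6 AN3CA libraries (TruSeq Stranded Total RNA kit) was sequenced by the authors, whose processing notes name bcl2fastq, STAR, Subread, featureCounts and edgeR and the build hg19. The counting options and versions are not given in the sources used here, and RSEM is named for another cell line only. The authors deposited TPM values for 17471 genes by symbol. Within each gene the ratios between libraries were ratios of whole numbers (100% of genes, largest relative deviation 7.15e-14), so reads were recovered up to a factor common to a gene's libraries. Limits in reads cover counting error only.

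The 13163 genes that reached 0.5 TPM in 3 or more libraries entered a fit on log2(TPM + 0.5) with limma 3.58.1 (R 4.3.3; trend and robust), two-sided, with Benjamini-Hochberg adjustment over all of them. The 95% intervals are those of this fit. Fold changes on this scale understate those of low genes. Calls took an adjusted p under 0.05, and 2-fold calls also took a log2 fold change of 1 or more in size. The fit was tested on simulated data, with 198 changed genes among 13157 tested. At an adjusted p under 0.05 it called 89.4% of the changed genes, and 11.1% of its calls were unchanged genes. Positions came from GENCODE release 44 lifted to GRCh37, with older symbols matched through RefSeq synonyms.

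The members and gene lists were chosen with earlier results of these data known. All 53 members were to be named, with every library's value where the adjusted p was under 0.05 and the absolute log2 fold change at least 0.5, where a gene was under the filter in 1 group only or where it was the highest of its role. Of each list, at most 5 genes past 2-fold were to be named. *JUNB* and *TAGLN*, which exceed the 5 of their list, and the markers were named after their values were seen. Alternatives were other pseudocounts and filters, median-of-ratios scaling, the replicate number as a block, voom on the recovered reads and each library left out.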

Additional observations from a re-analysis of the deposited data

How the results depend on the processing

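The counts of members higher and lower stayed within 1.5 times their values under all alternatives. The number higher by 2-fold went from 1 to 2 with a pseudocount of 0.1 and with voom on recovered reads, since *BAMBI* then passed (log2 fold change 1.05 and 1.12), and it ranged from 0 to 1 with 1 library left out, since *ID4* was at 0.95 without shEV replicate 2 and at 0.97 without shPAX2 replicate 3. The number lower by 2-fold went from 3 to 4 with a pseudocount of 0.1 and with voom, since *BMP4* then passed (-1.06 and -1.09). It fell to 2 with a pseudocount of 1 (*NOG* at -0.67) and without shPAX2 replicate 2 (*NOG* at -0.99). It was also 2 with any shEV library left out, where *NOG* was not tested. It fell to 1 with a filter of 5 TPM, which removes *LTBP1* and *NOG*. On median-of-ratios scaling it was also 1, with *GDF15* at -0.998 and *NOG* at -0.95.

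Genes near 0 changed sign. On median-of-ratios scaling *FSTL3* was at 0.015, *BMP8B* at 0.077, *BMPR1A* at 0.077, *SMAD5* at 0.067 and *SMURF1* at 0.033. With 1 library left out, *BMPR1A* ranged from -0.102 to 0.038, *SKIL* from -0.025 to 0.028, *GDF11* from -0.033 to 0.085, *BMP8B* from -0.071 to 0.050, *SMAD5* from -0.103 to 0.027 and *ACVR1B* from -0.016 to 0.057. None of these genes passed the test in any of these fits. *SMAD2* passed with voom (-0.15, adjusted p = 0.0427), and *ID1* did not pass with no filter (adjusted p = 0.07). Of 266 member values under the alternatives that keep all libraries, 253 kept direction and side of the threshold.

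The labels number the replicates 1 to 3 in each group. Deviations of libraries with the same number from their group means correlated at -0.05, 0.08 and 0.00, so the number is not taken as a pairing. With the replicate number as a block, 6 members were higher and 18 lower, and no member's call changed. Reads per gene limited the low members: *BAMBI*, *NOG* and *BMP4* rested on 3 to 39 reads a library.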
